A study of Mus musculus with 2 samples.

Results

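The genes of the NF-κB pathway examined here encode the Rel subunits that bind DNA (Rel, Rela, Relb, Nfkb1 and Nfkb2) and the proteins that hold them back or feed back on them (Nfkbia, Nfkbie, Nfkbid, Bcl3 and Tnfaip3). Every probe set that the platform annotation pairs with exactly 1 of these 10 symbols was taken, which gave 16 probe sets for 9 genes, out of 18193 genes named on the array. Nfkb1 had no probe set under this rule and was not analysed here. Of the 16 probe sets, 15 reached log2 5 in both arrays and are called measured below. The remaining one reads Tnfaip3. Over the whole array, 19363 of the 45037 probe sets other than controls were measured. No difference was read from values under log2 5, a limit set here.

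NF-κB is a dimer of Rel proteins that waits in the cytoplasm, bound by an IκB inhibitor. Signals from the T cell receptor, the costimulatory receptor CD28 and members of the TNF receptor family activate a kinase complex that marks the inhibitor for destruction, so that the dimer enters the nucleus. Among the genes it then switches on are its own inhibitors, and in regulatory T cells (Treg) the subunit c-Rel is known to act at the Foxp3 gene.

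The Treg were sorted from the spleen and lymph nodes of females 6 to 8 weeks old, and their RNA was hybridised to 2 Affymetrix arrays, 1 per genotype. The labels give Foxp3 Cre/wtS for both donors, with Stat3 fl/wt for one array and Stat3 fl/fl for the other, so that both carry Cre at a Foxp3 allele and they differ in whether 1 or 2 copies of Stat3 are floxed. Cre is driven from the X-linked Foxp3 gene, of which the genotype names a Cre copy and one written wtS. The labels state neither how many mice were pooled nor whether the sort kept only Cre-bearing cells. As no genotype has a second array, no difference below has an error or a test; the number of arrays limits the precision. All levels are log2 values, and every difference is fl/fl minus fl/wt on the log2 scale.

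The 3 measured Stat3 probe sets differed by -0.0083, -0.019 and -0.083, and since their position with respect to the floxed exons was not used here, they do not check the labels. Of 8 Treg markers with a probe set, 7 were measured; Foxp3 stood under log2 5 in both arrays (4.09 in fl/wt and 3.52 in fl/fl). All 7 T cell markers with a probe set were measured. Some markers listed for other cells that also use NF-κB were measured too. Whether their signal came from such cells or from the Treg themselves was not tested. Of 9 myeloid markers 8 were measured and Itgam was under log2 5. Of 9 B cell markers 6 were measured and Pax5, Fcer2a and Cr2 were under it. Of 7 dendritic markers 2 were measured (Itgax and Batf3), while Flt3, Xcr1, Zbtb46, Siglech and Cd209a were under it. Of 7 CD8 and NK markers 5 were measured, among them Nkg7 at 10.65 in fl/wt and Cd8b1 at 8.54. The differences were 0.27 for Cd8b1, 0.076 for Eomes, -0.010 for Klrd1 and -0.062 for Nkg7. Cd8a differed by -0.028 on its brightest probe set and by 0.059 on its other measured one. Ncr1 and Klrk1 were under log2 5. Of 5 plasma cell markers 2 were measured (Jchain, at 10.03 in fl/wt, and Prdm1), while Sdc1, Tnfrsf17 and Derl3 were under it. In fl/wt the measured myeloid markers ran from 10.56 to 13.99 and the measured Treg markers from 12.08 to 14.91. On the linear scale the summed signal of the T cell list was 104775 in fl/wt and 105993 in fl/fl. That of the Treg list was 97121 and 95466, and that of the myeloid list 48741 and 48884. Lists differ in genes and probe sets, so such sums do not give shares of cells. The sums were 2584 and 2445 for the B cell list, 475 and 530.0 for the dendritic list, 2490.5 and 2500.0 for the CD8 and NK list, and 2154 and 2179.5 for the plasma cell list. How much of each member's signal came from such cells was not tested, and in RNA from bulk cells fewer cells of a type cannot be told apart from less RNA per cell.

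Several of these genes are themselves known NF-κB targets, and for that reason the sequence before their starts is shown. RefSeq windows of GRCm38.p6 were matched for 8 of the 10 genes, with none used for Relb and Nfkb1, and the 250 bases before each start were searched on both strands for a common form of the κB site: the letters GGG, then any 3 bases, then TTCC. A stricter form, with A as the first of those 3 bases, is contained in it. The motif was chosen with these windows in view. The windows of Rel and Nfkbia, and the first window of Nfkb2, are shown for subunits and an inhibitor that are known to be autoregulated, and that of Nfkbie because both of its probe sets read lower in fl/fl; matches are in capitals.
Rel, chr11:23770970-23771219, minus strand: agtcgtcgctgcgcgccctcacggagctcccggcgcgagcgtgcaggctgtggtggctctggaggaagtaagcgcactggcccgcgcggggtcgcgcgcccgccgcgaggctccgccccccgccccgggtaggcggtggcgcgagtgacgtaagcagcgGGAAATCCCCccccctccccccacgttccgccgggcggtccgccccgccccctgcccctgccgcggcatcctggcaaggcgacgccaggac
Nfkb2, chr19:46304487-46304736, plus strand: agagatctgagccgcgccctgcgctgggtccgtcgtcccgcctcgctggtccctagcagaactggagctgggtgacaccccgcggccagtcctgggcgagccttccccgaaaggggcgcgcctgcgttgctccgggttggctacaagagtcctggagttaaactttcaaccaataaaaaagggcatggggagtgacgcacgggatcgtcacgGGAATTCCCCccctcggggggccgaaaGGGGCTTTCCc
Nfkbia, chr12:55492648-55492897, minus strand: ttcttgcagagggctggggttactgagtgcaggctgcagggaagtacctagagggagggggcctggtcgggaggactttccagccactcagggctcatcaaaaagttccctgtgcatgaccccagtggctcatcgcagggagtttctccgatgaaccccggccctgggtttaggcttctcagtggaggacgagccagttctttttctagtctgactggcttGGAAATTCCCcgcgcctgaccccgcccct
Nfkbie, chr17:45555450-45555699, plus strand: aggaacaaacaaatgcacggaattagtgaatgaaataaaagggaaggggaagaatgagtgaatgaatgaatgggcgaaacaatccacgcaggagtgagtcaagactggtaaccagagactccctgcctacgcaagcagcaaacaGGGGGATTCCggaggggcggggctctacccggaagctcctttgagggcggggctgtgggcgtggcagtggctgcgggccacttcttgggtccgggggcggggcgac

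At least 1 window held a match for 6 of the 8 genes (Rel, Nfkb2, Nfkbia, Nfkbie, Nfkbid and Tnfaip3), against 5.31% of the 27025 genes with a window. For Rela and Bcl3 these letters were not found. Some members have several windows, and by window a match was in 9 of 13, against 4.65% of all 32851. Several of the genes are known targets and the motif was chosen with their windows in view, so these shares test no enrichment. The stricter form was in the windows of 2 of the 8, Nfkb2 and Nfkbia, against 1.36% of all genes. In Nfkbia the match GGAAATTCCC covered the bases from 29 to 20 before the annotated start, and in Rel GGAAATCCCC covered those from 91 to 82 before it. Nfkb2 had 3 windows, the last 2 of which overlap, and each held at least 1 match. A match describes the letters only.

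**Figure D1:**
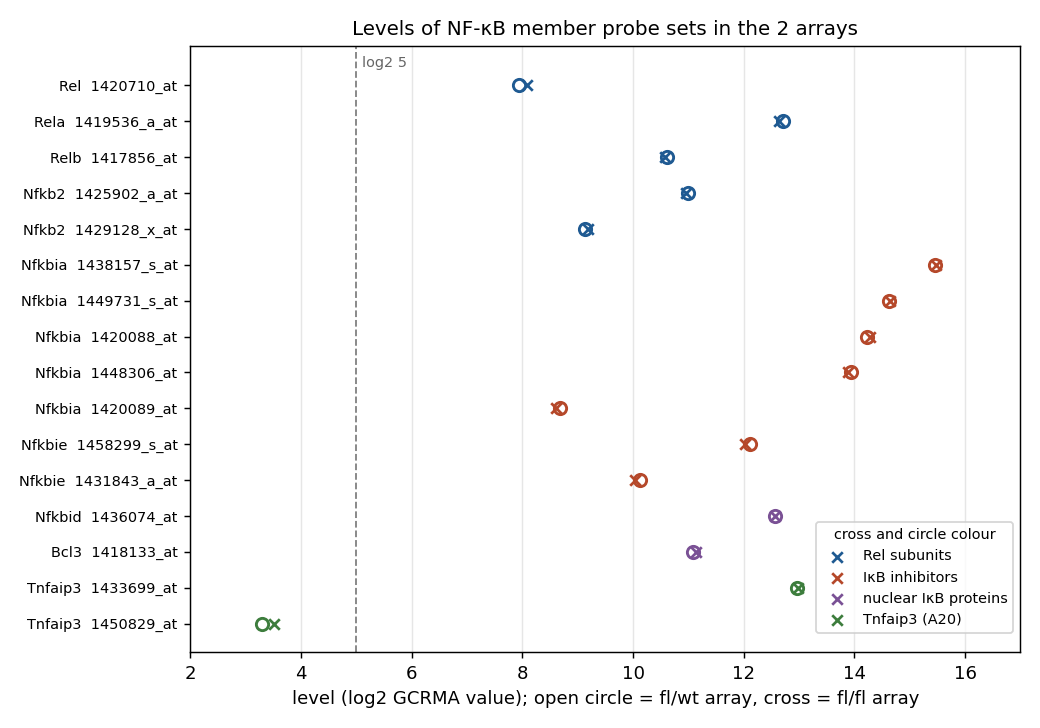
Level of each of the 16 member probe sets (log2 value) in the fl/wt array (open circle) and the fl/fl array (cross), coloured by role; the dashed line marks log2 5. Circle and cross nearly coincide in every row, the 5 Nfkbia probe sets span 8.68 to 15.46 in fl/wt, and 1 Tnfaip3 probe set lies under log2 5.

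Among the Rel subunits, Rel had the largest difference of all 15 measured probe sets, and it was small. Rel encodes c-Rel, the subunit most tied to lymphocyte activation and to Treg development. Its single probe set, 1420710_at, stood at 7.94 in fl/wt and at 8.08 in fl/fl, a difference of 0.14, or 1.10-fold. It was the only measured member probe set to differ by at least 0.1, against 31.2% of all 19363 measured probe sets. That share covers all levels, while 8 of the 16 member probe sets were in the top 10% of levels, where differences vary less. The Rel values were also the lowest of the measured members. The middle 95% of the differences of the 500 neighbours of Rel in level spanned -0.35 to 0.35. The Rel difference lies well inside that range, and 63.6% of those neighbours differed by less.

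Rela encodes p65, the main activating subunit of the canonical pathway. Its probe set 1419536_a_at stood at 12.71 in fl/wt and at 12.64 in fl/fl, a difference of -0.069. The central 95% at its level ran from -0.12 to 0.11, and 83.0% of its 500 neighbours in level differed by less. Rel and Rela thus went opposite ways between the arrays, each inside the central 95% at its level.

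The subunits of the non-canonical arm were also nearly level between the arrays. Relb, which pairs with the p52 product of Nfkb2, stood at 10.61 in fl/wt and at 10.58 in fl/fl on 1417856_at, a difference of -0.023. Nfkb2, whose p100 precursor both yields p52 and acts as an inhibitor, was read by 2 probe sets. The brighter, 1425902_a_at, read 10.99 and 10.96, a difference of -0.031. The dimmer, 1429128_x_at, whose suffix marks probes that can bind other transcripts, read 9.13 and 9.18, a difference of 0.055. The 2 probe sets of Nfkb2 therefore went opposite ways, as did those of 50.2% of the 2586 genes with 2 measured probe sets.

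Nfkbia, which encodes IκBα, the inhibitor that is destroyed on activation and made again as an NF-κB target, gave some of the highest values of both arrays. Its probe set 1438157_s_at stood at 15.46 in fl/wt and at 15.47 in fl/fl, which ranked 102 and 100 from the top of 45037 probe sets. The difference was 0.0037. Next came 1449731_s_at at 14.62 and 14.64 (0.023) and 1420088_at at 14.24 and 14.28 (0.049). The other two read lower in fl/fl. These were 1448306_at at 13.94 and 13.88 (-0.061) and 1420089_at at 8.68 and 8.62 (-0.061). The 5 probe sets of this gene thus gave 3 higher and 2 lower readings, within a span of 0.11. For the 142 genes with 5 measured probe sets the median span was 0.24, and 89.4% of them had probe sets in both directions.

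The same 5 probe sets show how far a level depends on the probes. Within the fl/wt array they ran from 8.68 to 15.46, a 110-fold range on the linear scale for a single gene. For this reason no order of abundance between genes is drawn from the levels below.

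Nfkbie, which encodes IκBε, an inhibitor that binds dimers of c-Rel and p65, had the closest differences of the 3 genes with several measured probe sets. Both read lower in the fl/fl array. Probe set 1458299_s_at stood at 12.12 in fl/wt and at 12.03 in fl/fl, a difference of -0.091, and 1431843_a_at read 10.12 and 10.04, a difference of -0.082. The first was the largest negative difference among the members and 91.0% of its 500 neighbours in level differed by less, but it stayed inside their central 95% (-0.11 to 0.12). On the linear scale fl/fl stood at 0.939 and 0.945 of fl/wt. Without a second array per genotype, a difference of this size has no error to be set against.

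The nuclear IκB proteins bind Rel dimers on DNA and can activate as well as repress. Nfkbid encodes IκBNS, which in mice is needed with c-Rel for full Foxp3 induction. It stood at 12.57 in fl/wt and at 12.56 in fl/fl on 1436074_at, a difference of -0.011. Bcl3, a partner of p50 and p52 homodimers, read 11.08 and 11.14 on 1418133_at, a difference of 0.070. Its neighbours in level had a central 95% of -0.14 to 0.14. Neither gene had a second probe set.

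Tnfaip3 encodes A20, an enzyme that edits ubiquitin chains to shut off the kinase complex and is a known NF-κB target. Its bright probe set 1433699_at read 12.97 in both arrays, a difference of 0.0054 that became -0.00074 with quantile normalisation. The other, 1450829_at, was under log2 5, at 3.30 in fl/wt and 3.51 in fl/fl, so no difference is read from it.

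**Figure D2:**
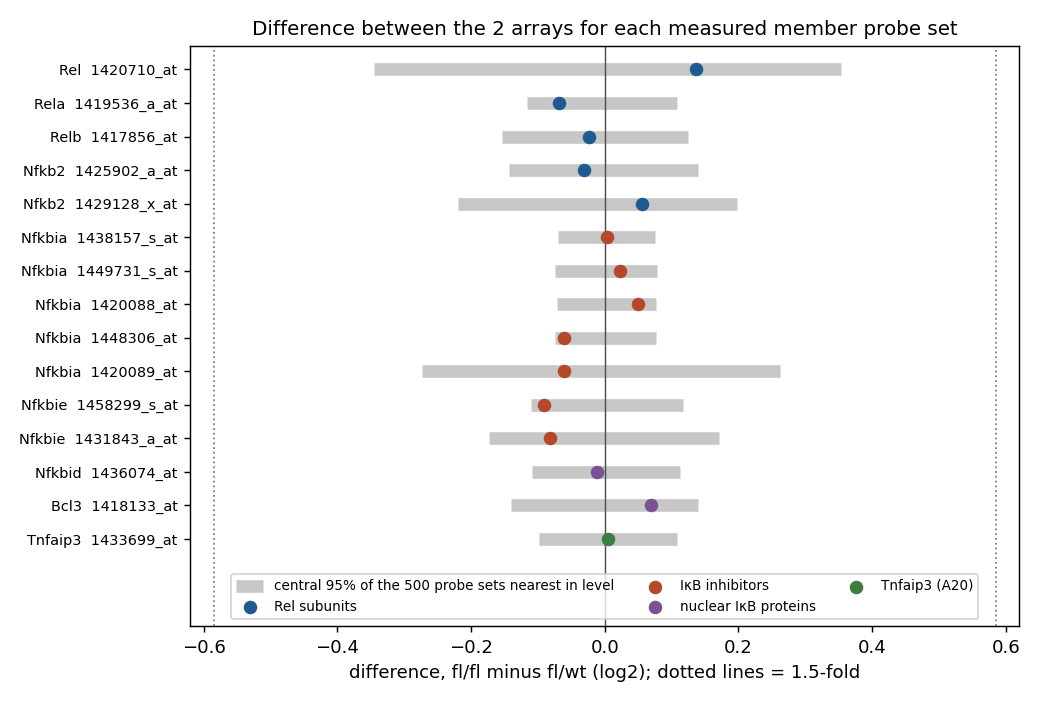
Difference between the arrays (fl/fl minus fl/wt, log2) for the 15 measured member probe sets (points, coloured by role), with the central 95% of the 500 measured probe sets nearest in level (grey bars) and 1.5-fold (dotted lines). All 15 points lie inside their bars, from -0.091 (Nfkbie) to 0.14 (Rel).

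Set beside each other by role, the subunits stood at nearly the same levels in fl/fl as in fl/wt, and so did the inhibitor and feedback genes. Reading each gene by its brightest probe set, the 4 subunits ran from 7.94 to 12.71 in fl/wt and from 8.08 to 12.64 in fl/fl. The 5 inhibitor and feedback genes ran from 11.08 to 15.46 in fl/wt and from 11.14 to 15.47 in fl/fl. Median levels were 10.80 in fl/wt and 10.77 in fl/fl over the subunits, and 12.57 and 12.56 over the inhibitor and feedback genes. The 2 ranges overlap in both arrays, and for the reason given above these levels do not rank subunits against inhibitors in abundance. The difference between the arrays is taken within a probe set, so the gap in binding between probe sets does not enter it. The median difference was -0.027 over the subunits and 0.0037 over the inhibitor and feedback genes, a gap of -0.031, beside a median of -0.0046 over all 9668 measured genes. Neither sign was stable: with shared-suffix probe sets left out the subunit median, then over Rel and Relb, was 0.057, and with quantile normalisation the other was -0.00074.

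As a group the members lay in the bulk of the array. Of the 15 measured probe sets, 7 read higher and 8 lower in fl/fl, against 49.1% higher and 50.9% lower among all measured probe sets. The median size of a difference, taken without its sign, was 0.055 for the members and 0.058 for all. None of the 15 differed by 1.5-fold, a size that 0.666% of all measured probe sets passed. Differences of the members ran from -0.091 to 0.14, and those of all measured probe sets from -1.11 to 1.42. Bright probe sets vary less between these arrays than dim ones, and 8 of the 16 member probe sets were in the top 10% of levels in each array.

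**Figure D3:**
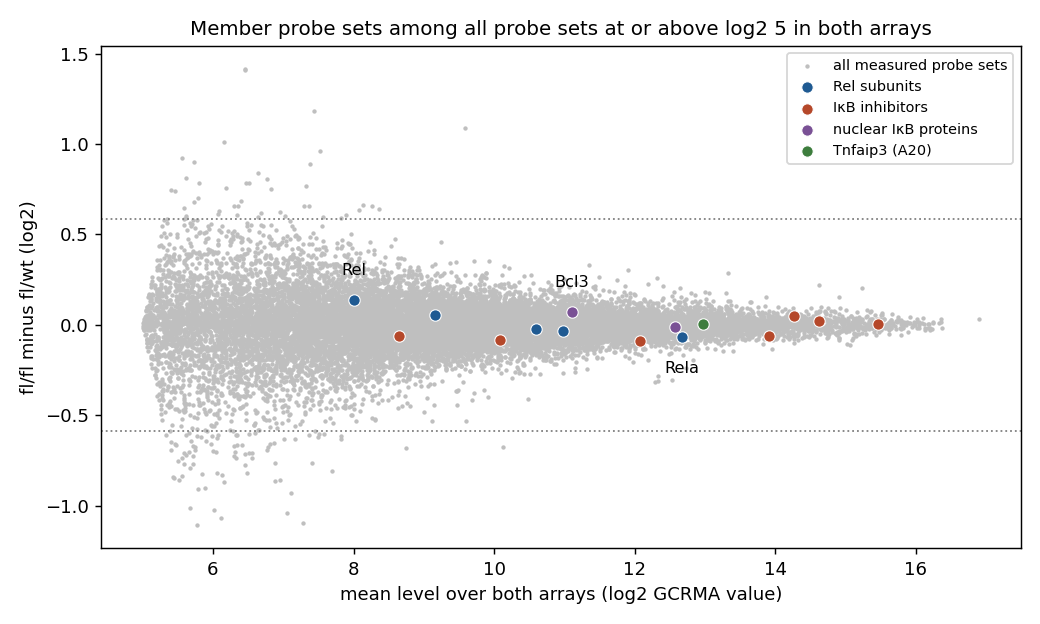
Difference (fl/fl minus fl/wt, log2) against mean level (log2 value) for the 19363 measured probe sets (grey) and the 15 member probe sets (coloured by role); dotted lines mark 1.5-fold. The grey cloud narrows as the level rises, and every member lies within it, with Rel at 0.14 near log2 8.

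Genes around the members in the pathway were examined in 9 lists of 105 symbols. Of these symbols 92 had a probe set and 82 were measured, while over the array 9668 of 18193 genes were measured. Of the 82, 34 read higher and 48 lower in fl/fl, with a median of -0.0071. Among all measured genes the shares were 47.4% higher and 52.6% lower. At least 0.1 higher were 5 and at least 0.1 lower 10, against 12.4% higher and 14% lower, or 26.4% in either direction, among all measured genes. None differed by 1.5-fold, against 0.548% of all genes. The lists share members, so their values are not independent of each other. Counts of higher and lower genes for each list below are likewise set against the 47.4% and 52.6% of all measured genes.

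Of the rest of the IκB family, Nfkbib, which encodes IκBβ, stood at 10.90 in fl/wt and at 10.95 in fl/fl, a difference of 0.050. Nfkbiz, the nuclear IκBζ, read 13.32 and 13.36, a difference of 0.038, while its other 2 probe sets ranged from -0.039 to 0.12. Ikbip, which is named for binding the kinase subunit and is not an IκB itself, differed by -0.14 at a level of 7.27 in fl/wt. Ankrd42, the fourth gene of this list and likewise not counted as an IκB here, was not measured.

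The kinase step had 5 genes higher and 4 lower of 9 measured, with a median of 0.0013. Map3k8 differed by 0.050 and the IKK-related kinase Ikbke by 0.031. On the lower side, Map3k7, which encodes the kinase TAK1, stood at 10.59 in fl/wt and at 10.52 in fl/fl, a difference of -0.071, and its other 2 measured probe sets were lower as well (-0.097 and -0.060). Its partner Tab1 read 8.78 and 8.63, a difference of -0.15 on a single measured probe set. The linear ubiquitin ligase, which builds the chains that gather these kinases, had Rnf31 at 0.012, Sharpin at -0.015 (0.018 on its other probe set) and Rbck1 at -0.068.

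Upstream, the genes that link the T cell receptor and CD28 to NF-κB had 2 higher and 5 lower of 7 measured. Their median was -0.0062, and the shares over all measured genes were 47.4% higher and 52.6% lower. Carmil2, a scaffold of the CD28 pathway, stood at 8.67 in fl/wt and at 8.81 in fl/fl, a difference of 0.14. Its other 2 probe sets were also higher, by 0.11 and 0.26. Prkcq, the kinase PKCθ that starts this branch, differed by -0.052. The adaptor Bcl10 differed by -0.044, with other probe sets from -0.061 to 0.054. Vav1 differed by 0.0013 on its brightest probe set and by -0.15 on its other.

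The list named TRAF and IAP adaptors, which also holds Tradd, Myd88 and Irak1, had 3 higher and 7 lower of 10 measured. Its median was -0.044. Among all measured genes 47.4% read higher and 52.6% lower. With each gene read as the median of its measured probe sets, the median of this list was -0.011. Tradd, an adaptor of the TNF receptor, stood at 12.00 in fl/wt and at 11.82 in fl/fl, a difference of -0.18, and its second probe set differed by -0.062. Irak1 differed by -0.14, but its other probe sets ran from -0.016 to 0.074. Birc3 (0.052) and Xiap (0.013) were on the higher side. The genes of the non-canonical arm, some of them the same, had 1 higher and 5 lower of 6 measured, with a median of -0.061. Among them Map3k14, the kinase NIK that drives processing of p100, differed by -0.082 and Traf2 by -0.13.

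Negative regulators had 9 higher and 8 lower of 17 measured, with a median of 0.0018. Tnip2, a partner of A20, differed by 0.13 at a level of 7.84 in fl/wt. Pdlim2, which in mice targets nuclear p65 for degradation, differed by -0.13. The ubiquitin ligase Itch differed by -0.056, with all 3 measured probe sets lower. Tax1bp1, a further A20 partner, differed by 0.078, but its other probe sets ran from -0.28 to 0.17. Nuclear partners of Rel proteins had 5 higher and 3 lower of 8 measured, with a median of 0.0043. Here the acetyltransferase Ep300 differed by 0.16 and the deacetylases Sirt1 by 0.11 and Hdac3 by -0.026. The kinase Rps6ka5 differed by -0.25 on its brightest probe set and by 0.20 on its other.

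Genes listed as NF-κB targets had 12 higher and 17 lower of 29 measured, with a median of -0.0060. The shares over all measured genes were 47.4% higher and 52.6% lower. The survival gene Bcl2l1 stood at 10.64 in fl/wt and at 10.48 in fl/fl, a difference of -0.16, and the stress-induced Ier3 read 9.47 and 9.30, a difference of -0.17. Stat5a (0.13) and Tnip1 (0.066), which encodes an A20 partner, were on the higher side. The cytokine genes Csf2, Ccl3, Ccl4, Il2 and Il6 were under log2 5 in both arrays, and Cd40 was under it in fl/wt only (4.99, and 5.18 in fl/fl). These 6, chosen for naming after their values were seen, are all the targets with a probe set that were not measured.

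**Figure D4:**
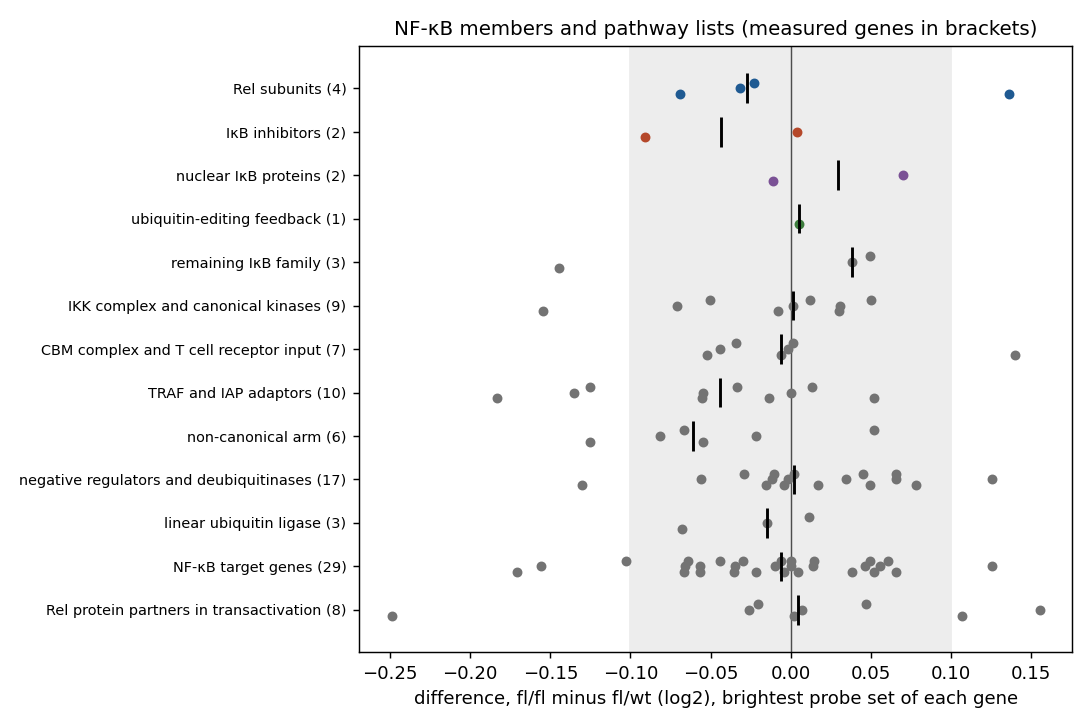
Difference (fl/fl minus fl/wt, log2) of the brightest probe set of each measured gene in the 4 member groups (coloured) and the 9 pathway lists (grey), with each list's median (black bar) and the range within 0.1 of no difference (shaded). Most genes lie in the shaded range, and list medians run from -0.061 (non-canonical arm) to 0.038 (remaining IκB family).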

How the data were processed

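The authors deposited a table of log2 values for 45101 probe sets on 2 arrays, and GCRMA is named as its source, per the submitters' processing notes. GCRMA subtracts a background modelled from probe sequence and normalises arrays together; the sources used here name neither its settings nor the arrays that entered. The log2 scale was read from the values, which ran from 0.53 to 16.9. The 64 control probe sets were left out.

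Of the other 45037 probe sets, 34945 carried 1 symbol in the platform annotation, 932 several and 9160 none; only those with 1 symbol were used for genes. The symbol of all 16 member probe sets (9 genes) matched RefSeq (GRCm38.p6) by Entrez identifier. A probe set at or above log2 5 in both arrays counted as measured, and a gene was read by its brightest probe set. A probe set's 500 nearest in mean level describe the usual spread at that level. Every probe set of the members was named; of each pathway list the 2 largest positive and the 2 largest negative differences were named, with Nfkbib and Nfkbiz. Members and lists were chosen with earlier results of these data known. The procedure was tested on simulated data, with planted differences larger than those of the members and less scatter than in these arrays. That test therefore does not cover differences as small as those of the members. Python 3.11.15, numpy 2.4.6, pandas 2.3.3 and statsmodels 0.14.6 were used. Alternatives were other floors (log2 4, 6 or none), 32 added on the linear scale, 3 rescalings, probe sets without shared suffixes, the median of a gene's probe sets and other thresholds.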

Additional observations from a re-analysis of the deposited data

How the results depend on the processing

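No paired analysis was possible because each genotype has 1 array. None of the alternatives run brought a member probe set past 1.5-fold. Of 113 recomputed values of measured member probe sets, none shifted by 0.14 or more, the SD among probe sets that read the same gene. No member difference was larger than that SD, so this limit could not flag a difference that vanished. The other floors and the suffix filter only change which probe sets are kept, so they leave these values unchanged. Opposite in sign was 1 value (Tnfaip3, -0.00074 with quantile normalisation). The Rel difference ran from 0.12 to 0.14. The number of member probe sets that differed by at least 0.1, which was 1, became 2 with no filter and no floor, where the dim Tnfaip3 probe set enters, and 0 with a threshold of 0.2. With shared-suffix probe sets left out, the median of the Rel subunits was 0.057 (2 genes left) and that of the list named remaining IκB family -0.053; the 2 genes then left in that list were Nfkbiz, at 0.038, and Ikbip, which is not an IκB, at -0.14. Pathway medians also took the opposite sign for kinases (-0.0079 without shared suffixes and -0.030 as the median of probe sets), the linear ubiquitin ligase (0.012 and 0.0017), nuclear partners (-0.0068 as the median of probe sets) and targets (0.00038 with no filter and no floor). No list median reached 0.1 in size under the alternatives run. Rescaling shifted the overall gene median by 0.0036 or less. The lack of a second array per genotype, and probe sets near log2 5, limit what small differences can show.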
